A study of Mus musculus with 6 samples.

Results

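A set of 10 genes for proteins that fold, modify and crosslink collagen was followed: the lysyl oxidases Lox, Loxl1, Loxl2 and Loxl3, the catalytic subunits of prolyl 4-hydroxylase P4ha1 and P4ha2, the lysyl hydroxylases Plod1, Plod2 and Plod3, and the collagen chaperone Serpinh1, counted below with the enzymes. They are set by name, and all 10 members were found among the 45706 genes measured and passed the filter on low counts, which kept 14635 genes. RNA was sequenced from fibroblasts grown out of collagenase-digested lungs of wild-type mice. The 3 control libraries came from cells without DKK1; the labels name no vehicle. The 3 DKK1 libraries came from cells treated for 24 hours with 30 ng/ml of recombinant mouse DKK1, a secreted Wnt antagonist whose receptors are LRP5 and LRP6. The deposited files gave RSEM expected counts, and library totals ran from 22565897 to 34727082 counts. The labels give no age or sex of the mice and do not say whether replicates came from separate animals or cultures, so p-values measure the spread between these libraries, which may be technical.

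Fibrillar collagen is made as procollagen chains in the endoplasmic reticulum. There the prolyl hydroxylases convert proline to hydroxyproline, which stabilises the triple helix, and the lysyl hydroxylases convert lysine to hydroxylysine, a site for sugars and for crosslinks. Serpinh1, also known as HSP47, binds the folded helix and accompanies it out of the endoplasmic reticulum. The hydroxylases need oxygen, iron and ascorbate. Outside the cell the lysyl oxidases, which are copper enzymes, oxidise lysine and hydroxylysine in collagen, and lysine in elastin, so that neighbouring molecules become covalently joined. In lung these crosslinks set how stiff the matrix is.

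Most of these genes moved little with DKK1. Without pairing, 0 of 10 were called by edgeR's quasi-likelihood test at an adjusted p under 0.05, against 131 of all 14635 genes tested, or 0.895% (0.697% called higher and 0.198% called lower). One member, Loxl3, had an unadjusted p under 0.05, as had 10.6% of all genes tested. Same-numbered control and DKK1 libraries deviated together weakly across genes (correlations of 0.241, 0.189 and 0.357), so the numbers were also used as pairs. Differently numbered libraries were not compared in this way, and the labels do not say what the numbers stand for. When replicate number was added as a block, 5 of 10 members were called: Lox, Loxl1, Loxl3 and Serpinh1 fell, and P4ha1 rose. In that fit 9.42% of all genes were called, 4.96% higher and 4.46% lower. The called changes were small: Loxl3 fell by 12.4%, Lox fell by 6.28%, Loxl1 fell by 6.25%, Serpinh1 fell by 4.07%, and P4ha1 was 5.29% higher. The median absolute log2 change over the 10 members, 0.06, was close to the median of 0.07 over all genes tested.

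Promoter sequence is shown for 3 members: P4ha1, the one member called higher, its relative P4ha2, and Serpinh1, called lower. They are the 250 bases before each transcription start in RefSeq on GRCm38.p6, at chr10:59323046-59323295 (plus strand), chr11:54100674-54100923 (plus strand) and chr7:99353240-99353489 (minus strand). The P4ha2 stretch lies inside the gene span given below (chr11:54100095-54131665), which comes from another annotation. Its motif positions therefore count from the RefSeq start only. Capitals mark ACGTG on either strand, a form of the core of the element bound by hypoxia-inducible factors. Another form, GCGTG, was not searched and is not marked.
P4ha1: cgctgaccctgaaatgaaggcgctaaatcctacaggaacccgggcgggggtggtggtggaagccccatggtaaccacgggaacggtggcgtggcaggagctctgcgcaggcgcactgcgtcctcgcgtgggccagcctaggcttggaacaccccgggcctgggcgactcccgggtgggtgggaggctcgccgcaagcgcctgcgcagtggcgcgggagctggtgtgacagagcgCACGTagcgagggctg
P4ha2: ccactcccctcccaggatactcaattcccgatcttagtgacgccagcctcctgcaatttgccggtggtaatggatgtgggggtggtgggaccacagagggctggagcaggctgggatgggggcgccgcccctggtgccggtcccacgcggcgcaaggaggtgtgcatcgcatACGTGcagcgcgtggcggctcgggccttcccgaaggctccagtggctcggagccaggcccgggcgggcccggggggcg
Serpinh1: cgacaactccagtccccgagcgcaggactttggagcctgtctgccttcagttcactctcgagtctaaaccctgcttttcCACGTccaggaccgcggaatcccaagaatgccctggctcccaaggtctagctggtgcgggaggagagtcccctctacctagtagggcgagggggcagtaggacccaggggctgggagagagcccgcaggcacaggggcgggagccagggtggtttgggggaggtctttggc
The search covered 300 bases, 250 before and 50 from the start, counted as 0, onward. P4ha1 held ACGTG once, at -16 to -12 on the minus strand. P4ha2 held it at -78 to -74 and again at 10 to 14, both on the plus strand. Serpinh1 held it at -171 to -167 on the minus strand, and Plod3 at -54 to -50 on the plus strand. Thus 4 of the 5 members in the promoter table (these and Plod1) held the letters, as did 19.6% of 32851 promoters of the same length. The same letters stood in the promoter of a gene called higher and in that of a gene called lower. GGGCGG, the box bound by Sp-family factors, was searched on both strands and found in 4 of the 5 and in 35.7% of all promoters. GAANNTTC, a palindrome with the core of the heat shock element, was in 1 of the 5 (Plod1) and in 7.86% of all. An NF-kB motif was in 2 of the 5 (P4ha1 and Serpinh1) and in 8.46% of all. In P4ha1 and Serpinh1 no ACGTG overlapped another of these motifs, and no match shows that a factor binds there.

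Lox had the highest level of the 4 lysyl oxidases in each library. Lox (ENSMUSG00000024529, chromosome 18), the founding member of the family, stood at 1199, 1306 and 1057 CPM (counts scaled to a common library total) in control replicates 1, 2 and 3 and at 1100, 1232 and 1017 in the DKK1 replicates. Each DKK1 library was lower than its control partner, by 0.13, 0.09 and 0.06 on the log2 scale in pairs 1 to 3 (recorded as -0.13, -0.09 and -0.06), while the groups overlapped widely. The means were 1187 ± 125 and 1116 ± 109 CPM (SD, n = 3). The log2 fold change was -0.09 (SE 0.09, adjusted p = 0.790, edgeR) unpaired and -0.09 (SE 0.02, adjusted p = 0.00546, edgeR) with the replicate block. The Lox estimate was the same in both fits, and its SE differed. Unpaired, it was -0.02 without control replicate 2 and -0.18 without control replicate 3. Without the replicate 2 libraries the paired adjusted p of Lox was 0.105.

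Loxl1 (ENSMUSG00000032334, chr9:58287738-58313186 on GRCm38, minus strand), which acts on elastin in particular, was at 599.8, 631.7 and 564.7 CPM in control and 567.3, 588.2 and 534.4 CPM with DKK1. The groups overlapped, but the order of the replicates was the same in both, with replicate 2 highest and replicate 3 lowest, as for Lox. The mean went from 598.8 ± 33.5 to 563.3 ± 27.1 CPM (SD, n = 3), and the log2 fold change was -0.09 (SE 0.05, adjusted p = 0.623, edgeR) unpaired and -0.09 (SE 0.02, adjusted p = 0.0055) paired. The paired adjusted p for Loxl1 was 0.0702 after removal of library trends against GC content and transcript length, and 0.135 without the replicate 2 libraries.

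Loxl2 (ENSMUSG00000034205, chr14:69609068-69695834, plus strand), one of the family members with scavenger receptor domains, did not follow Lox and Loxl1. Its values were 512, 442.6 and 404.7 CPM in control and 539.3, 446.6 and 390.7 CPM with DKK1. Replicate 1 was highest and replicate 3 lowest in both groups, and the pairs went in different directions, with log2 differences of 0.07, 0.01 and -0.05. The log2 fold change was 0.01 (SE 0.12, adjusted p = 0.990, edgeR), and pairing gave 0.01 (SE 0.02, adjusted p = 0.888). Replicate number took 97.8% of the variance of Loxl2, a share higher than that of 98.7% of genes tested, and treatment took 0.0463%. Loxl2 overlaps Gm27177 on the opposite strand (4.851 CPM in control and 6.613 CPM with DKK1), and its counts were not all whole in 5 of 6 libraries.

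Loxl3 (ENSMUSG00000000693, chr6:83034173-83052562, plus strand), a close relative of Loxl2, was the member with the largest change. Its control libraries held 211.4, 221.1 and 216.6 CPM and its DKK1 libraries 177.1, 197.5 and 196.7 CPM. All 3 DKK1 values lay below all 3 control values, and Loxl3 was the 1 member of 10 for which the groups did not overlap. Over all genes tested, 16.3% had groups that did not overlap. The means were 216.4 ± 4.88 and 190.4 ± 11.5 CPM (SD, n = 3). The log2 fold change was -0.19 (SE 0.05, unadjusted p = 0.00365, adjusted p = 0.150, edgeR) unpaired and -0.19 (SE 0.03, adjusted p = 0.000316) paired. Treatment took 75.0% of the variance of Loxl3 and replicate number 19.8%. Loxl3 overlaps Htra2 on the opposite strand, and its counts were not all whole (beyond 0.005) in 6 of 6 libraries. Htra2 itself stood at 59.43 CPM in control and 59.03 CPM with DKK1. The strandedness of the libraries is not given in the sources used here.

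**Figure D1:**
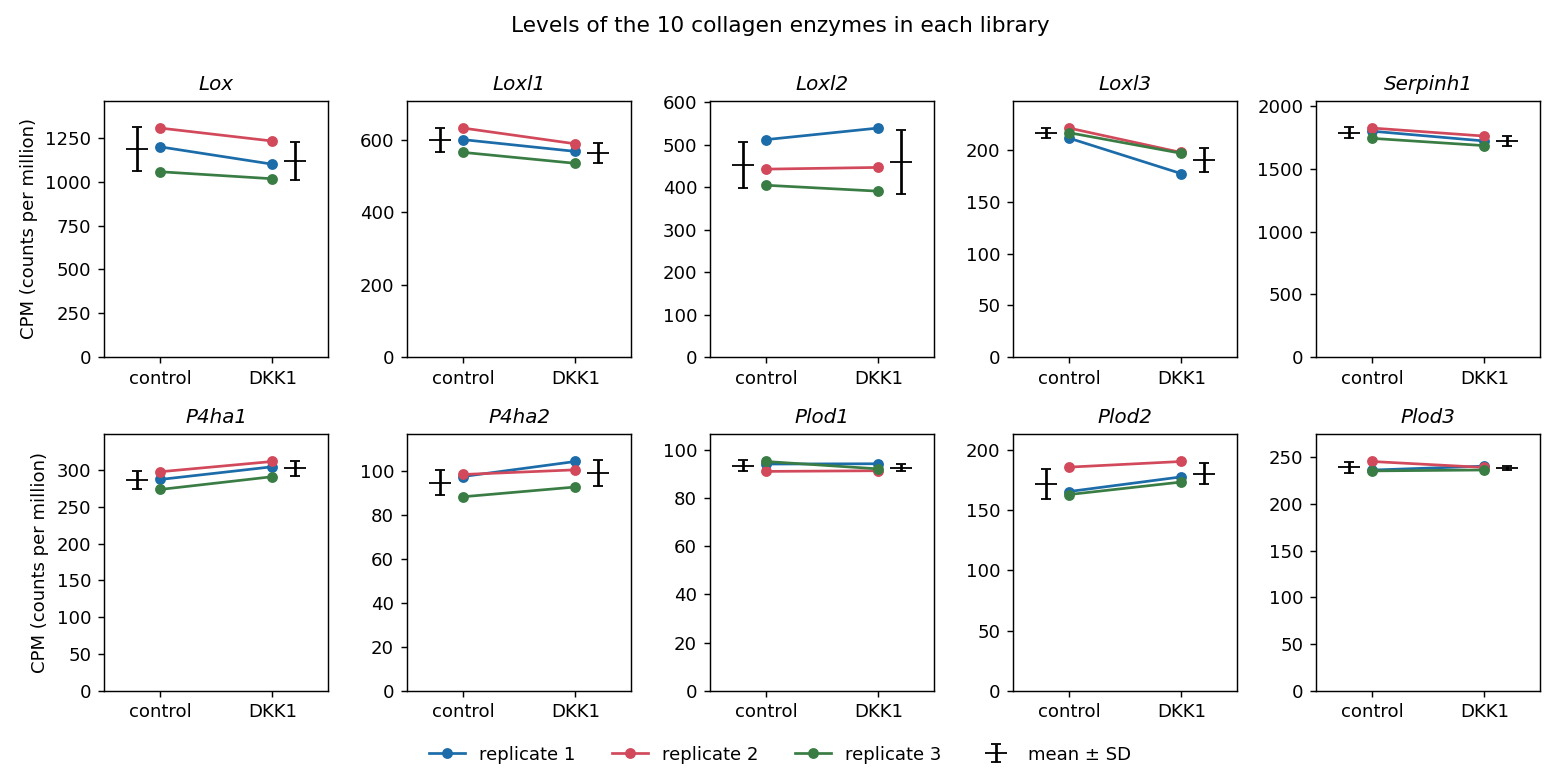
Level of each of the 10 enzymes in CPM, 1 panel per gene with the axis starting at 0. Points are libraries, lines join the control and DKK1 libraries of the same replicate number, and bars beside them give mean ± SD (n = 3). Loxl3 is the 1 gene whose DKK1 values all lie below its control values (highest DKK1 value 197.5, lowest control value 211.4), while in Lox, Loxl2 and Plod2 the distance between replicates is wider than that between groups.

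Serpinh1 (ENSMUSG00000070436, chr7:99345376-99353239, minus strand), whose promoter is printed above, was the most abundant of the 10. It was at 1799, 1824 and 1742 CPM in control and at 1721, 1760 and 1684 CPM with DKK1. Each pair was lower with DKK1, by a similar step (log2 differences of -0.07, -0.06 and -0.05), and the highest DKK1 library lay above the lowest control library. The mean went from 1788 ± 42.2 to 1722 ± 37.9 CPM (SD, n = 3), and the log2 fold change was -0.06 (SE 0.03, adjusted p = 0.615, edgeR) unpaired and -0.06 (SE 0.02, adjusted p = 0.0333) paired. The paired call of Serpinh1 was not made by DESeq2 with the same block (adjusted p = 0.0757), nor by edgeR with GC and length trends removed (0.0528), without replicate 2 (0.257) or without replicate 3 (0.0883).

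The prolyl 4-hydroxylase subunits stood on the other side of zero. P4ha1 (ENSMUSG00000019916, chr10:59323296-59373304, plus strand), the main catalytic subunit in many cell types, was at 287.2, 297.7 and 273.6 CPM in control and at 304.5, 311.7 and 291 CPM with DKK1. Each DKK1 library of P4ha1 was above its partner (log2 differences of 0.08, 0.06 and 0.09), and the groups overlapped. The means were 286.2 ± 12.1 and 302.4 ± 10.5 CPM (SD, n = 3), and the log2 fold change was 0.07 (SE 0.04, adjusted p = 0.643, edgeR) unpaired and 0.07 (SE 0.02, adjusted p = 0.0386) paired. The paired call was not made by DESeq2 (adjusted p = 0.455), at equal depth (adjusted p = 0.140) or with any 1 pair left out (adjusted p from 0.0835 to 0.180, edgeR).

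P4ha2 (ENSMUSG00000018906, chr11:54100095-54131665, plus strand), the second catalytic subunit, was at 97.45, 98.38 and 88.24 CPM in control and at 104.3, 100.5 and 92.68 CPM with DKK1. The log2 differences of its pairs were 0.09, 0.02 and 0.07, and the groups overlapped. P4ha2 was not called in either fit; its paired log2 fold change was 0.06 (SE 0.03, adjusted p = 0.276, edgeR), so the estimate was near that of P4ha1 with a wider error.

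Among the lysyl hydroxylases none was called. Plod2 (ENSMUSG00000032374, chr9:92542223-92608428, plus strand), which hydroxylates the lysines of collagen telopeptides, was at 165.6, 185.9 and 163.1 CPM in control and at 177.8, 190.6 and 173.5 CPM with DKK1. All 3 pairs of Plod2 were higher with DKK1 (log2 differences of 0.10, 0.03 and 0.09), with a paired log2 fold change of 0.07 (SE 0.02, adjusted p = 0.113, edgeR). Plod1 (ENSMUSG00000019055, chr4:147909753-147936767, minus strand), which acts on lysines in the helix, had a control range of 91.06 to 95.18 CPM and a DKK1 range of 91.34 to 94.24 CPM. Plod3 (ENSMUSG00000004846, chr5:136987019-136996648, plus strand), which also adds sugars to hydroxylysine, had a control range of 235.4 to 245.5 CPM and a DKK1 range of 236.4 to 240.5 CPM. For both of these genes the DKK1 range lay inside the control range; their paired log2 fold changes were -0.02 (SE 0.03, adjusted p = 0.802) and -0.01 (SE 0.02, adjusted p = 0.892, edgeR). The sign of the estimate of either became positive once the trends against GC content and length were removed (0.01 for Plod1 and 0.02 for Plod3, paired). Plod2 and Plod3 overlap opposite-strand genes, Gm38391 at 1.982 CPM and Znhit1 at 29.16 CPM in control, and the counts of both enzymes were not all whole in 6 of 6 libraries.

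**Figure D2:**
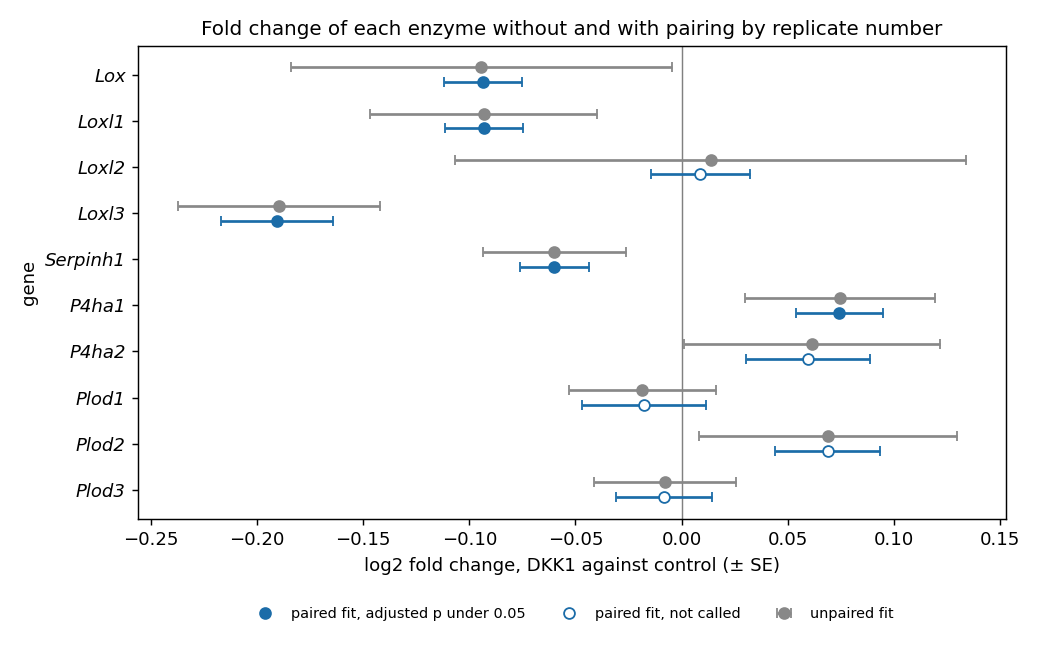
Log2 fold change of each enzyme, DKK1 against control, with its SE, from edgeR without pairing (grey) and with replicate number as block (blue, filled where the adjusted p was under 0.05). The estimates sit at almost the same place in both fits, from -0.19 for Loxl3 to 0.07 for P4ha1, and the error bars of all 10 are shorter with the block.

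Over the 10 members, 7 went the same way in all 3 pairs of CPM values, 3 upward (P4ha1, P4ha2 and Plod2) and 4 downward (Lox, Loxl1, Loxl3 and Serpinh1), as did 41.8% of all genes tested. With TMM scaling, which the log2 differences use, the count was 8, with Plod1 added downward, and 41.7% of all genes. The scaled log2 differences of Plod1 in pairs 1 and 2 were -0.00345 and -0.00277, and their direction turned with the scaling. The median log2 fold change of the members was -0.01, and that of all genes -0.0009. The DKK1 library was the deeper of each pair.

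Replicate number took a larger share of variance than DKK1 for 9 of the 10 genes, all but Loxl3. It has more levels than treatment, so it tends to take the larger share even where neither has an effect. The median share of variance taken by replicate number was 67.5% over the members and 47.5% over all genes tested, while treatment took a median of 17.4% and 16.6%. Lox, Loxl1, Serpinh1, P4ha1 and Plod2 were highest in replicate 2 and lowest in replicate 3 in both groups. Summed over the 10 genes, they made up 0.52%, 0.534% and 0.484% of counts in control replicates 1 to 3 and 0.503%, 0.516% and 0.471% with DKK1.

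Marker levels of other cell types also differed by replicate number. The 4 lists of epithelial, endothelial, macrophage and leukocyte, and mesothelial markers were each highest in replicate 3 of both groups. The epithelial sum, over 7 markers, ranged from 40.24 to 124.8 CPM in control and from 37.64 to 125.3 CPM with DKK1, the endothelial sum (5 markers) from 22.78 to 57.26 and from 20.93 to 58.07, the macrophage and leukocyte sum (6 markers) from 395.2 to 794.8 and from 436.9 to 835.1, and the mesothelial sum (4 markers) from 9.728 to 28.08 and from 10.4 to 31.57. Most of the macrophage and leukocyte sum was Lyz2, and 3 of those 6 markers were called in the paired fit: Itgam rose from 14.9 to 31.5 CPM (log2 fold change 1.07, adjusted p = 7.23e-08, edgeR), Adgre1 rose from 6.38 to 9.35 CPM (0.54, adjusted p = 0.00179) and Csf1r fell from 24.41 to 20.21 CPM (-0.25, adjusted p = 0.0364). None of the epithelial, endothelial or mesothelial markers was called. No marker was at 0 in every library, although Scgb1a1 had at most 3 counts. The 9 fibroblast markers summed to between 12590 and 15060 CPM in all libraries, and 7 of the 9 were called in the paired fit, 5 lower and 2 higher (Pdgfra, 0.27, and Dcn, 0.62). The 6 smooth muscle markers, which include Acta2 and Tagln, summed to between 9569 and 10670 CPM in control and between 8165 and 9522 with DKK1, and 6 of 6 were called lower in the paired fit. Their sum was also highest in replicate 3 of both groups. The paired fit called 9.42% of all genes tested, 4.96% higher and 4.46% lower. Without pairing, Myh11 was the 1 marker called in all 6 lists (adjusted p = 0.00387, edgeR). In bulk RNA, fewer cells of a type and less RNA per cell cannot be told apart, and the part of these markers in the enzyme values was not tested. Without the replicate 3 libraries, the paired fit called Lox, Loxl1 and Loxl3 lower (adjusted p = 0.00939, 0.0206 and 0.00126, edgeR), and Serpinh1 and P4ha1 were not called (0.0883 and 0.133).

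**Figure D3:**
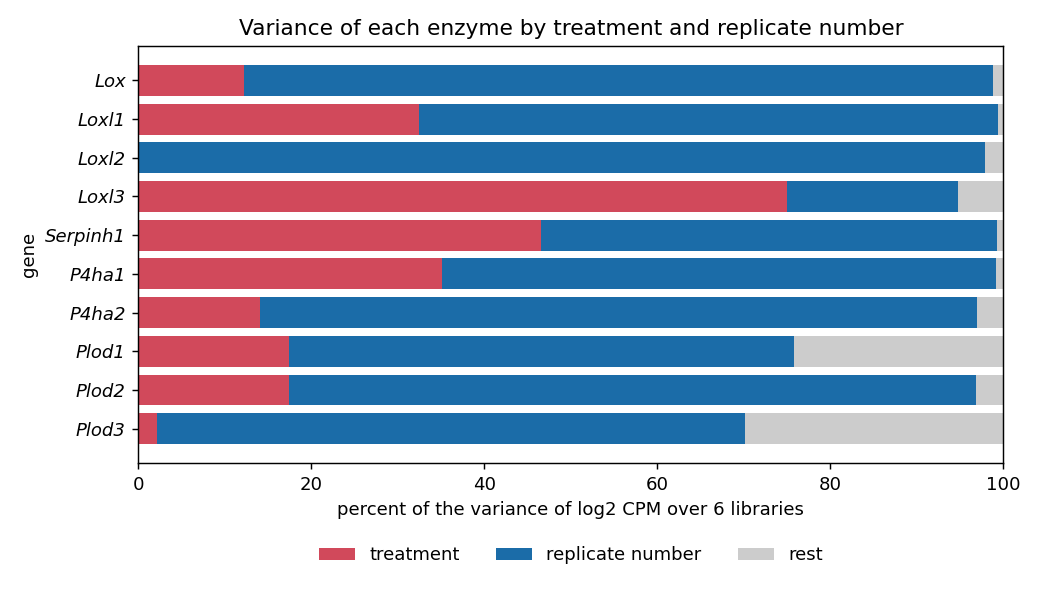
Share of the variance of log2 CPM over the 6 libraries taken by treatment, by replicate number and by the rest, for each enzyme (horizontal axis in percent). Replicate number takes between 52.7% and 97.8% in 9 of the genes and 19.8% in Loxl3, where treatment takes 75.0%. Replicate number has more levels than treatment, which by itself raises its share.

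To compare levels between genes, CPM was divided by the length of the longest coding transcript in kilobases. In control, Serpinh1 stood at 786 ± 18.6 CPM per kb (SD, n = 3), above Lox at 250.4 ± 26.4 and Loxl1 at 181.6 ± 10.2. Next came Loxl2 at 85.2 ± 10.2, Plod3 at 72.9 ± 1.70 and P4ha1 at 70.8 ± 2.99 CPM per kb. The ranges of Plod3 and P4ha1 overlapped, and with this length no other neighbours in the order did. Below them were Loxl3 at 52.8 ± 1.19, Plod2 at 46.8 ± 3.42, P4ha2 at 41.8 ± 2.48 and Plod1 at 28.8 ± 0.66 CPM per kb. The chaperone and the 2 elastin- and collagen-oxidising enzymes at the top were thus above every hydroxylase. With mean transcript length in place of the longest, the first 3 and the last kept their places, Plod3 (132.1 CPM per kb) moved above Loxl2 (108.4), and Loxl3 (102.7) above P4ha1 (91.84). The ranges of Loxl2 and Loxl3, of P4ha1 and Plod2, and of Plod2 and P4ha2 (80.89) then overlapped.

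Of the summed CPM per kb of the 4 lysyl oxidases followed here, which leaves out Loxl4, Lox made up 43.86 ± 1.55% in control and 43.62 ± 1.71% with DKK1 (SD, n = 3), and Loxl1 31.89% and 31.73%. The share of Loxl2 was 14.95 ± 1.42% in control and 15.99 ± 2.16% with DKK1, higher in all 3 pairs (1.96, 0.951 and 0.205 percentage points), with a two-sided exact permutation p of 0.5. That of Loxl3 was 9.295 ± 0.70% and 8.654 ± 0.898%, lower in all 3 pairs, with an exact permutation p of 0.4. P4ha1 took 62.86% of the sum of P4ha1 and P4ha2, without the subunit P4ha3, in control and 63.08% with DKK1 (exact permutation p = 0.7). Among the lysyl hydroxylases, Plod2 was at 31.5 ± 1.33% in control and 32.73 ± 1.09% with DKK1, higher in all 3 pairs (exact permutation p = 0.3), and Plod3 at 49.08 ± 0.326% and 48.32 ± 0.614%, lower in all 3 pairs (exact permutation p = 0.2). In all 9 shares were tested, and 3 against 3 libraries cannot give a p below 0.1, so no share could pass this test at 0.05. The Plod2 pairs differed by 1.25, 0.962 and 1.47 points and the Plod3 pairs by -0.667, -1.09 and -0.53. The Plod2 difference of 1.23 percentage points was between 0.596 (without DKK1 replicate 2) and 1.99 (without control replicate 2) with 1 library left out, and that of Loxl2 between -0.21 (without DKK1 replicate 1) and 1.83 (without control replicate 1).

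Of the 6 substrate genes of these enzymes, 5 fell and 0 rose in the paired fit, with a median log2 fold change of -0.11. Of all genes tested, that fit called 4.46% lower and 4.96% higher. Eln, which encodes the elastin precursor, went from 127.9 ± 21.7 to 64.45 ± 5.23 CPM (SD, n = 3; log2 fold change -0.997, SE 0.05, paired adjusted p = 2.97e-08, edgeR; unpaired adjusted p = 0.0076). Its control libraries (117.5, 152.8 and 113.4 CPM) all lay above its DKK1 libraries (59.18, 69.63 and 64.53 CPM). Of the collagen genes 4 fell, by less: the paired log2 fold changes were -0.10 for Col1a1 (5940 to 5547 CPM, adjusted p = 0.00107), -0.13 for Col1a2 (2958 to 2722 CPM, adjusted p = 0.000123), -0.13 for Col5a1 (1110 to 1018 CPM, adjusted p = 0.000223) and -0.07 for Col5a2 (3231 to 3092 CPM, adjusted p = 0.0233). Without pairing none of these 4 was called. Without the trends against GC content and length, Col1a1, Col5a1 and Col5a2 were no longer called in the paired fit (adjusted p = 0.109, 0.0648 and 0.315). Their log2 fold changes were then -0.04, -0.05 and -0.03, and that of Col1a2, still called, was -0.08. Without replicate 2, Col1a1 (0.0832) and Col5a2 (0.263) were not called either. Col3a1 was at 1393 CPM in control and 1413 CPM with DKK1 (paired log2 fold change 0.02, adjusted p = 0.834).

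Ratios of counts were taken for Lox and Loxl1 to elastin and for Lox, Serpinh1 and P4ha1 to type I collagen. There were 10.2, 8.546 and 9.316 Lox counts for each Eln count in control and 18.58, 17.69 and 15.75 with DKK1, a ratio of means of 1.85. The Loxl1 to Eln ratio also differed by 1.85 times, from 4.74 to 8.772. Against the sum of Col1a1 and Col1a2, Lox stood at 0.1332 ± 0.00397 in control and 0.1348 ± 0.00501 with DKK1 (1.01 times), and Serpinh1 at 0.2015 ± 0.011 and 0.2087 ± 0.0108 (1.04 times). P4ha1 stood at 0.03231, 0.03103 and 0.03333 in control and 0.03619, 0.03553 and 0.0382 with DKK1 (1.14 times). The groups did not overlap for this ratio or for either elastin ratio. Lox, Loxl1 and Eln were all lower with DKK1, Eln by the most, so the elastin ratios were higher through Eln. P4ha1 was called higher and Col1a1 and Col1a2 lower in the paired fit, so their ratio restates those differences. These ratios are descriptions and were given no test, and they use counts, not counts per length.

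Besides the members, 44 other genes of collagen biosynthesis and 12 hypoxia-responsive genes were taken as a list of 56, of which 53 were tested. This list was chosen with earlier results of these data known. Without pairing 3 were called, all lower: Fmod, Fbln5 and Eln, against 0.895% of all genes tested. Leaving out 1 library changed this count to 0 (without DKK1 replicate 1), 1 (without control replicate 1 or 2), 2 (without control replicate 3 or DKK1 replicate 2) or 5 (without DKK1 replicate 3). With the block 17 of the 41 tested biosynthesis genes were called, 5 higher and 12 lower (median log2 fold change over the 41 genes 0.0015), where 9.42% of all genes tested were called, 4.96% higher and 4.46% lower, besides 6 of the 12 hypoxia-responsive genes, all higher. Of the 17, 5 (Fmod, Fbln5, Tgm2, Col1a2 and Eln) were called under all 7 alternatives run with the block, as were all 6 hypoxia-responsive genes, and none of the 23 changed sign. Without replicate 2 the paired fit called 12 of the whole list.

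Among 19 tested genes of modification, folding and export in the endoplasmic reticulum, 2 rose and 3 fell in the paired fit, with a median log2 fold change of 0.02. Of all genes tested, that fit called 4.96% higher and 4.46% lower. Without pairing 0 of the 19 were called. P4hb, the protein disulfide isomerase that forms the other subunit of prolyl 4-hydroxylase, went with P4ha1: it was at 1216, 1235 and 1205 CPM in control and at 1293, 1304 and 1290 CPM with DKK1. The P4hb groups did not overlap, and the log2 fold change was 0.08 (SE 0.02, paired adjusted p = 0.00583, edgeR). Tmem38b, an ion channel of the endoplasmic reticulum needed for collagen assembly, rose from 25.78 to 30.09 CPM (0.22, adjusted p = 0.0146). P3h1, a prolyl 3-hydroxylase, fell from 154.7 to 145.8 CPM (-0.09, adjusted p = 0.038). Fkbp10, a prolyl isomerase that aids lysyl hydroxylation of telopeptides, fell from 350.6 to 333.9 CPM (-0.08, adjusted p = 0.042), and it overlaps Nt5c3b on the opposite strand, with counts not all whole in 6 of 6 libraries. Sec23a, a coat protein of the vesicles that carry procollagen, fell from 203.6 to 189.7 CPM (-0.11, adjusted p = 0.0108). Under DESeq2 with the block, P4hb was the 1 call of these 5 still made; P3h1, Fkbp10, Tmem38b and Sec23a had adjusted p of 0.54, 0.329, 0.433 and 0.166. Without replicate 2 none of the 5 was called by edgeR (adjusted p from 0.0853 for P4hb to 0.257 for Fkbp10), and P3h1 and Fkbp10 were also lost without replicate 1 (0.177 and 0.186) and with the GC and length trends removed (0.132 and 0.114). Fkbp10 was lost at equal depth (0.0503) and Tmem38b without replicate 3 (0.068). Colgalt1, a collagen galactosyltransferase, was at 310.5 CPM in control and 322.5 CPM with DKK1 and was not called (0.05, adjusted p = 0.178).

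Of 12 tested genes of extracellular processing, 2 rose and 4 fell in the paired fit, against 4.96% and 4.46% of all genes tested. Fbln5, an elastic fibre protein that brings lysyl oxidases to elastin, fell from 260.3 ± 15.8 to 195.3 ± 9.80 CPM (SD, n = 3; -0.42, SE 0.02, paired adjusted p = 1.93e-07, edgeR; unpaired adjusted p = 0.0153). Fmod, fibromodulin, a proteoglycan that binds collagen fibrils and Lox, fell from 23.23 ± 0.313 to 18.18 ± 1.03 CPM (-0.36, SE 0.06, paired adjusted p = 0.00101; unpaired adjusted p = 0.0344). In both genes all 3 DKK1 libraries lay below all 3 control libraries. Tgm2, a transglutaminase that joins matrix proteins by another type of crosslink, fell from 380.9 to 345.8 CPM (-0.14, adjusted p = 0.000627), and Pcolce, an enhancer of C-propeptide removal, from 231.8 to 218.2 CPM (-0.09, adjusted p = 0.0165). Its relative Pcolce2 rose from 25.27 to 29.88 CPM (0.25, adjusted p = 0.0128), and Adamts3, an N-propeptidase, from 1.221 to 2.276 CPM (0.91, adjusted p = 0.014). The calls of Pcolce, Pcolce2 and Adamts3 were lost under DESeq2 with the block (adjusted p = 0.252, 0.327 and 0.343) and in edgeR without replicate 2 (0.133, 0.226 and 0.16), that of Pcolce also without replicate 3 (0.0713). Loxl4, the remaining lysyl oxidase, was at 54.72 CPM in control and 54.83 CPM with DKK1 (paired adjusted p = 0.983), and Adamts2, the main procollagen N-propeptidase, at 402.7 and 390.7 CPM (adjusted p = 0.268).

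Of 4 tested genes of cofactor supply, 1 was called: Slc23a2, a transporter of ascorbate, the vitamin the hydroxylases use, rose from 47.28 ± 1.71 to 57.91 ± 3.63 CPM (SD, n = 3; log2 fold change 0.29, SE 0.05, paired adjusted p = 0.0012, edgeR; unpaired adjusted p = 0.0624). Its control libraries (46, 46.62 and 49.22 CPM) all lay below its DKK1 libraries (60.26, 59.75 and 53.73 CPM). Without replicate 2 the paired adjusted p of Slc23a2 was 0.0549. With all libraries, the paired fit called 9.42% of all genes tested.

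A list of 12 hypoxia-responsive genes was included because P4ha1, P4ha2, Plod2 and the lysyl oxidases are known targets of hypoxia-inducible factors. The list was chosen with earlier results of these data known, so its counts are no independent test against all genes. All 12 had positive log2 fold changes, with a median of 0.13; in the paired fit 6 rose and 0 fell, against 4.96% and 4.46% of all genes tested, and without pairing 0 were called (6 of 12 at an unadjusted p under 0.05, against 10.6% of all genes tested). Vegfa, a growth factor for blood vessels, had 230.1, 199.2 and 203.3 CPM in control and 290.4, 242.8 and 234.3 CPM with DKK1 (0.27, paired adjusted p = 1.48e-05). The glucose transporter Slc2a1 rose from 189.5 to 215.8 CPM (0.18, adjusted p = 0.000124), and the glycolytic enzymes Pgk1 and Ldha from 783.6 to 851.5 CPM (0.11, adjusted p = 0.000932) and from 1194 to 1317 CPM (0.14, adjusted p = 0.00013). Bnip3, a mitochondrial protein, rose from 80.86 to 101.4 CPM (0.32, adjusted p = 4.39e-05), and Egln3, an oxygen-sensing prolyl hydroxylase, from 12.69 to 18.01 CPM (0.49, adjusted p = 0.000621). In these 6 genes all 3 DKK1 libraries lay above all 3 control libraries; 16.3% of all genes tested had groups that did not overlap. Adm was at 395.6 CPM in control and 407.3 CPM with DKK1 and was not called (0.04, adjusted p = 0.327). Beside these, P4ha1, P4ha2 and Plod2 had paired log2 fold changes of 0.07, 0.06 and 0.07, and Lox, Loxl1, Loxl2 and Loxl3 of -0.09, -0.09, 0.01 and -0.19. Oxygen in the cultures was not measured here, and the cause of these differences was not tested.

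**Figure D4:**
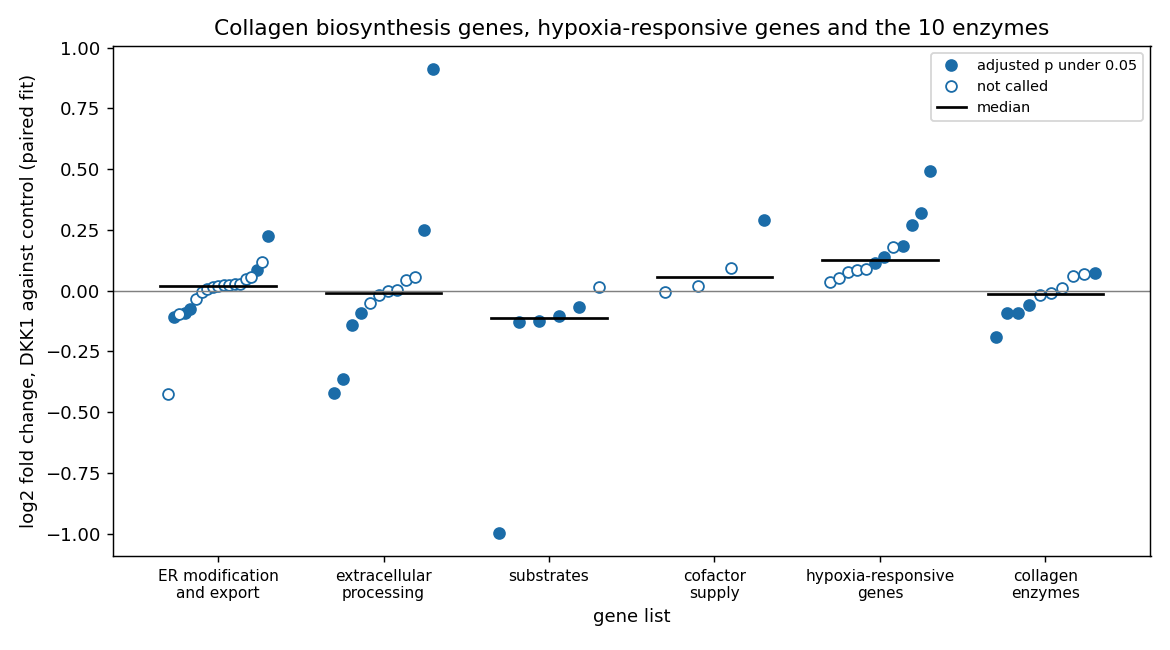
Log2 fold change (vertical axis, paired edgeR fit) of each tested gene in 5 lists of collagen biosynthesis and hypoxia-responsive genes and of the 10 enzymes, 1 point per gene, filled where the adjusted p was under 0.05, with the median as a bar. The 5 called substrate genes lie below 0, down to -0.997 for Eln, the 12 hypoxia-responsive genes above 0 with a median of 0.13, and the 10 enzymes around a median of -0.01.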

How the data were processed

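RNA sequencing of 3 control and 3 DKK1 libraries was analysed. The authors deposited RSEM expected counts per gene, unscaled and not all whole; per the submitters' processing notes, STAR, RSEM and edgeR 4.2.1 were used with GRCm38 (mm10), without the role of edgeR. Strandedness and annotation release are not given in the sources used here.

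Symbols matched 98.77% of the 45706 identifiers. Coordinates, overlaps and lengths came from GENCODE M21 (GRCm38), which held 98.72% of the transcript identifiers, and promoters from RefSeq (GRCm38.p6), where 5 of the 10 members matched. Expected counts were rounded, filtered with filterByExpr (minimum count 10), scaled by TMM and tested with the two-sided quasi-likelihood test of edgeR 4.0.16 in R 4.3.3, with Benjamini-Hochberg adjustment over 14635 genes and a threshold of 0.05. The kept genes held 99.93% of counts. SE is the absolute log2 fold change over the root of F, and CPM uses library totals (22565897 to 34727082). A count of 3 equals 0.0864 to 0.133 CPM, a floor for counting error only, since PCR reads without molecular identifiers are not independent molecules.

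Replicate numbers in the sample titles are shared by the groups, and the labels do not say what they stand for. Deviations of same-numbered libraries from their group means correlated across genes at 0.241, 0.189 and 0.357, all over 0.1, and the number was taken as a block in a second fit. No 2 replicates of a group were alike within counting noise (chi-square per degree of freedom from 4.9 to 7.63). That noise treats reads as independent molecules, so the values do not show what the replicates are.

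The members and lists were chosen with earlier results of these data known. All 10 members are named; of the other lists, the genes called in either fit and up to 4 uncalled genes of highest level are named, with Loxl4 added after its values were seen. Family shares were compared by exact permutation tests over libraries. Alternatives were other scalings and filters, DESeq2 1.42.0, limma-voom 3.58.1, equal depth, a GC and length correction, and each library or pair left out. The scripts were tested on simulated data.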

Additional observations from a re-analysis of the deposited data

How the results depend on the processing

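With the replicate block, calls went from 131 to 1379 over all genes, from 0 to 5 among the 10 enzymes and from 3 to 23 in the list of 44 collagen biosynthesis and 12 hypoxia-responsive genes. With the block and without replicate 1, 2 or 3, the counts were 1312, 612 and 1059 over all genes, 4, 1 and 3 among the enzymes and 22, 12 and 21 in the list. Without replicate 2 the block left Loxl3 (adjusted p = 0.0124, edgeR) as the 1 enzyme called, and Lox and Loxl1 had adjusted p of 0.105 and 0.135. Other tools and corrections with the block gave, for all genes, the enzymes and the list, 551, 3 and 16 calls (DESeq2), 1391, 5 and 23 (limma-voom), 1358, 4 and 22 (equal depth) and 1311, 3 and 20 (GC and length trends removed). That last correction changed the split in the list from 11 higher and 12 lower to 13 higher and 7 lower, and in the enzymes from 1 and 4 to 1 and 2. Lox and Loxl3 were called under all 5 settings with the block that kept the 6 libraries.

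Without pairing, leaving out 1 library gave 36 to 139 calls over all genes, 0 among the enzymes and 0 to 5 in the list, and leaving out both replicate 3 libraries gave 149, 0 and 4. No low-count filter gave 329 and 7 over all genes and in the list, and DESeq2 289, 1 (Loxl3, adjusted p = 0.0336) and 7. With 1 library left out, the unpaired log2 fold change ranged from -0.178 to -0.018 for Lox, -0.14 to -0.051 for Loxl1, -0.221 to -0.141 for Loxl3, -0.086 to -0.041 for Serpinh1, 0.0365 to 0.106 for P4ha1, 0.0069 to 0.109 for P4ha2, 0.024 to 0.134 for Plod2 and -0.035 to -0.012 for Plod1. Loxl2 ranged from -0.12 to 0.12 and was -0.022 with the block and without replicate 1. Plod3 ranged from -0.026 to 0.014 with 1 library left out, was 0.012 with the block and without replicate 2, and was 0.0234 unpaired and 0.0229 paired without the GC and length trends. Plod1 was 0.0054 and 0.0061 without those trends. With 1 library left out, differences in family share ranged from -1.195 to 0.629 points for Lox, -0.572 to 0.263 for Loxl1, -0.21 to 1.827 for Loxl2, -1.133 to -0.237 for Loxl3, -0.107 to 0.739 for P4ha1, -0.739 to 0.107 for P4ha2, -1.04 to -0.0998 for Plod1, 0.596 to 1.99 for Plod2 and -0.979 to -0.41 for Plod3. Of the alternative values of the enzymes' fold changes, 200 kept sign and side of the threshold, 29 passed it in the same direction and 11 changed sign. The causes were not tested.

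The labels do not say what a replicate number stands for. Each enzyme had at least 1999 counts in every library.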
